A study of Mus musculus with 18 samples.

Results

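The ribosomal protein pseudogenes are the rows of the deposited expression table whose gene symbol is that of a ribosomal protein gene followed by -ps and a number. The table held 200 of them among 38046 gene symbols, built from 234 transcripts, and they are named after 51 parent genes, of which 50 were also in the table. They were followed in 18 RNA libraries from 6 clonal mouse lines of oligodendrocyte progenitors (OPCs, proliferating precursors of the cells that make myelin), all grown from primary cells derived from neural stem cells. The control lines are D7, D3 and E8, the Thap1 null lines are 3F, D6 and 7F, and each was sampled 3 times. OPC libraries came from cells in OPC growth media with PDGF-AA, and DIV2 and DIV4 libraries from cells kept 2 or 4 days in oligodendrocyte differentiation media with the thyroid hormone T3 at 40 μg/ml. The Thap1 gene encodes a transcription factor with a zinc-binding THAP domain, and the study asked how its loss bears on oligodendrocyte development. The labels do not say by what method Thap1 was inactivated. Each library is 1 clone at 1 stage, and all 3 replicates of a genotype are separate clones.

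A ribosomal protein gene is transcribed at a high rate in every dividing cell, and its spliced message has been copied back into the mouse genome many times. Such a processed pseudogene has no introns, lies away from its parent, and often keeps the parent's coding sequence almost letter for letter. Most are thought to be silent because the parent's promoter was not copied. When a pseudogene and its parent are this alike, a sequencing read can fit both, and the program that assigns the read decides which gene receives it.

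Rpl3-ps1 and Rpl34-ps1 were the pseudogenes whose values lay at opposite extremes in the clones of the 2 genotypes, and their sequences are shown because they contain almost nothing that sets them apart from the parents. Rpl3 encodes a large-subunit protein near the peptidyl transferase centre of the ribosome, and Rpl34 another large-subunit protein. In GENCODE M21 (GRCm38), Rpl3-ps1 is a single-exon processed pseudogene of 1210 bases on the plus strand of chromosome X, from 13202571 to 13203780, and Rpl34-ps1 is one of 354 bases on the plus strand of chromosome 6, from 71124610 to 71124963. Neither overlaps another annotated gene. Rpl3-ps1 aligned to an Rpl3 transcript over all its bases with 99.8% identity, and Rpl34-ps1 to an Rpl34 transcript with 99.4%. Each carried 2 substitutions, given with the parent's base first and counted from the A of the parent's start codon. They were C57A and T786C in Rpl3-ps1, and T132C and C318G in Rpl34-ps1. All 4 fall on the third base of a codon. The 61-base windows centred on them follow, with the differing base in capitals.

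Rpl3 at C57A: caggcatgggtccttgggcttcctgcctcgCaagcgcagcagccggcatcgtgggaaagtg
Rpl3-ps1 at C57A: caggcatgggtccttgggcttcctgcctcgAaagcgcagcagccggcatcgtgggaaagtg
Rpl3 at T786C: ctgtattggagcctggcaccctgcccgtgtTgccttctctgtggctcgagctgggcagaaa
Rpl3-ps1 at T786C: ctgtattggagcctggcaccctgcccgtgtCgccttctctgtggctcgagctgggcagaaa
Rpl34 at T132C: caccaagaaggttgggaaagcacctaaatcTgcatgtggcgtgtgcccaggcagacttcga
Rpl34-ps1 at T132C: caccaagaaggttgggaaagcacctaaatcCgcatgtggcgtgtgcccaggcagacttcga
Rpl34 at C318G: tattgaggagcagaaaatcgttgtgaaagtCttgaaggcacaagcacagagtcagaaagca
Rpl34-ps1 at C318G: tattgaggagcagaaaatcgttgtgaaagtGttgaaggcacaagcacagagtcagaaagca

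The annotated Rpl34-ps1 model from its base 55 to its stop codon at base 354 shows how much of it is shared, and the capitals again mark the 2 bases that differ from Rpl34.

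Rpl34-ps1: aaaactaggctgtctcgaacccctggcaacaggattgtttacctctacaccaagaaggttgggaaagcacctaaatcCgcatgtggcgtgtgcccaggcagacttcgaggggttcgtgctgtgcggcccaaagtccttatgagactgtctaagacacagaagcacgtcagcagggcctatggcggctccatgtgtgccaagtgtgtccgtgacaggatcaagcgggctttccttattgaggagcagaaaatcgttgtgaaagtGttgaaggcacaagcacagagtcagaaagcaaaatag

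Of the 31-base words (31-mers) of the annotated Rpl3-ps1, 94.7% also occur in Rpl3 transcripts, and of those of Rpl34-ps1, 80.9% occur in Rpl34 transcripts. Every 31-mer of Rpl34-ps1 was found in at least 1 other gene. The deposited table lists 2 transcript models for each of these pseudogenes, however, and nearly all of the value lay in the longer one. The longer model held 99.6% of the TPM of Rpl3-ps1 (1293 bases) and 99.998% of that of Rpl34-ps1 (423 bases). These longer models were not found in M21, so their extra bases were not analysed here. How reads that fit both a pseudogene and its parent were divided between them is not given in the sources used here, and neither is the strain of each clone. A pseudogene's value is the abundance assigned to it. Transcription of the copy, parent reads assigned to the copy, and a base that differs between the clones' own alleles cannot be told apart from these values.

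TPM is transcript abundance per length, scaled to a fixed total in each library, and it keeps no sequencing depth. In the control OPC libraries the noncoding features Gm15662, Gm26924 and mmu-mir-6236 held 64.8% to 88.0% of the TPM, against 0.789% to 34.8% in null OPCs and 0.359% to 3.17% at DIV2 and DIV4. The values below are therefore TPM rescaled by a median-of-ratios factor per library (0.125 to 0.317 in control OPCs, 0.723 to 1.36 in null OPCs, 0.956 to 2.01 elsewhere). Comparisons that involve the control OPC libraries depend on that factor. The targeted gene was lower in the null clones when only its protein-coding transcripts were summed, at 1.91 to 4.40 rescaled TPM in the 9 control libraries and 0.197 to 0.776 in the 9 null libraries. Summed over all of its transcripts, Thap1 was 3.83 to 8.21 in control and 5.22 to 11.96 in null. The 4 OPC markers (Pdgfra, Cspg4, Olig2, Sox10) summed to 284 to 350 in control and 213 to 246 in null OPC libraries. The 4 oligodendrocyte markers (Mbp, Mog, Mag, Cnp) summed to 2101 to 3435 in control and 1369 to 2056 in null at DIV2, without overlap. At DIV4 they overlapped, at 1146 to 7256 in control and 597 to 1352 in null. The part of these marker differences in the comparisons of the genotypes was not tested. The 3 astrocyte markers (Gfap, Aqp4, Aldh1l1) summed to at most 8.04 in the OPC libraries, and to 2.12 to 249 in control and 82.4 to 140 in null at DIV4, and the neuron, microglia and mesenchymal lists summed to at most 6.91 in any library.

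Most ribosomal protein pseudogenes had little or no signal. Of the 200, 14 were listed at 0 in every library and 165 had a mean under 1 rescaled TPM, the level below which no test was made. None of those 165 reached 5 in any library, and the highest single value among them was 4.33. The remaining 35 were tested. Of these, 15 had a mean from 1 to 5, 6 from 5 to 50, and 14 of 50 or more. Those 14 held 95.4% to 97.3% of the summed pseudogene level in every library.

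The most abundant pseudogenes had the highest median identity to their parents. Of the 14, 10 were identical to the parent over the whole aligned stretch, and their identities ranged from 99.36% to 100%. Of the 21 tested pseudogenes with a mean under 50, 1 was identical (Rpl38-ps2) and the median identity was 98.8%. Among 164 untested pseudogenes with a parent to align to, 3 were identical and the median identity was 95.7%. The median share of 31-mers found in any other gene fell in the same order, from 100% through 82.8% to 55.5%. These are descriptions of the M21 annotation beside the level, and the part of shared sequence in the levels was not tested. Of the 35 tested pseudogenes, 16 had several transcript models in the deposited table. In 13 of these the longest model held most of the TPM (91.3% to 100%), and that model was in M21 for 1 of the 13. Of the 14 most abundant, 10 had several models, and in 9 the longest held most. Identity to the parent was not read for models outside M21. A different annotated gene overlapped 13 of the 35 tested pseudogenes. The kit was stranded, but whether strand was used in the counting is not given in the sources used here.

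**Figure D1:**
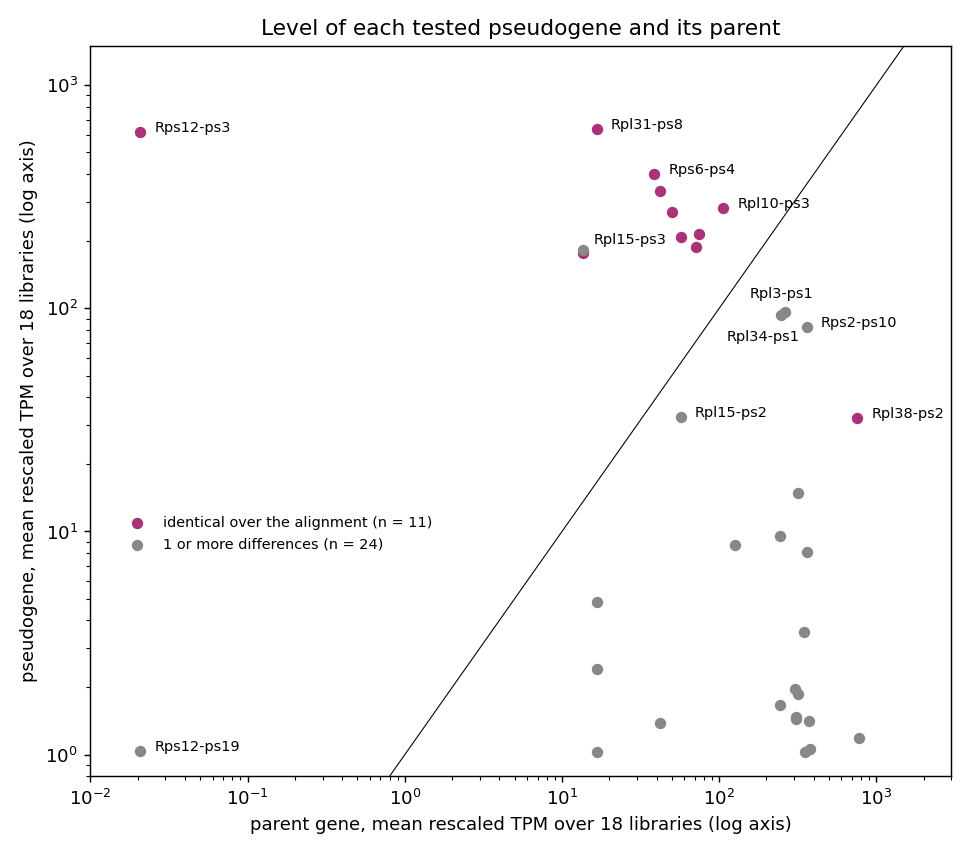
Mean rescaled TPM of each of the 35 tested pseudogenes (vertical log axis) against that of its parent gene (horizontal log axis), over 18 libraries. Purple points are identical to the parent over the aligned stretch of the M21 model (n = 11), and grey points differ by 1 or more bases or gaps (n = 24). The line marks equal levels. Purple points lie above the line except Rpl38-ps2, and Rps12-ps3 sits at the far left because its parent is listed near 0.

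For 12 of the 35 tested pseudogenes the copy held a median share above 50% of the pseudogene and parent together, and 11 of those 12 were among the 14 most abundant. Rps12-ps3 is the extreme case. It was listed at 320 to 1160 rescaled TPM, while Rps12, which encodes a small-subunit protein, was listed at 0.00608 to 0.146. Rpl31-ps8 was 351 to 1229 and Rpl31, a large-subunit gene, 8.07 to 29.8. For Rps13, another small-subunit gene, the parent was 5.06 to 21.6, below either of its abundant copies, Rps13-ps1 and Rps13-ps2. M21 annotates Rps12-ps3 and Rpl10-ps3 as protein coding in spite of their names. The deposited table gives 23 of the 200 a protein-coding label, among them these and, of the 14 most abundant, also Rpl27-ps3 and Rps2-ps10.

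Rpl3-ps1 was near 0 in every control clone and abundant in every null clone. In OPCs it was 0.852, 1.83 and 1.73 rescaled TPM in control clones D7, D3 and E8, and 260, 299 and 338 in null clones 3F, D6 and 7F. At DIV2 the control clones had 0.261, 0.566 and 0.446 and the null clones 141, 152 and 157. At DIV4 the control clones had 0.463, 0.621 and 0.960 and the null clones 134, 112 and 130. The genotypes did not overlap at any stage, and the highest control value was 1.83 against a lowest null value of 112. The difference (null minus control) on the log2(rescaled TPM + 1) scale was 6.94 in OPCs, 6.73 at DIV2 and 6.24 at DIV4, each with a standard error of 0.167 (limma). Rpl3-ps1 and Rpl34-ps1 were singled out for description with this pattern known, so their own differences are given without a test.

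Rpl3 itself was lower in the null clones. It was 535, 691 and 424 rescaled TPM in control OPCs (D7, D3, E8) and 262, 259 and 301 in null OPCs (3F, D6, 7F). At DIV2 it was 254, 254 and 257 in control and 129, 146 and 140 in null. At DIV4 it was 212, 246 and 295 in control and 122, 94.8 and 120 in null. Every control clone was above every null clone at each stage. The log2 differences of Rpl3 were -0.98 in OPCs (SE 0.174, limma adjusted p = 0.0030), -0.88 at DIV2 (adjusted p = 0.013) and -1.15 at DIV4 (adjusted p = 0.0017). On the deposited TPM, without rescaling, Rpl3 was higher in null OPCs, by 1.16 (limma adjusted p = 0.031). That was less than the median difference over all genes on that scale, which is given below. The DIV2 and DIV4 differences of Rpl3 kept their sign but did not pass the test. The DIV2 call was also lost without null 3F (adjusted p = 0.15) or 7F (adjusted p = 0.13).

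Rpl3 and Rpl3-ps1 added together differed little between the genotypes. Their sum was 536, 693 and 425 rescaled TPM in control OPCs against 522, 558 and 639 in null OPCs. At DIV2 it was 254, 254 and 257 against 270, 297 and 297, and at DIV4 213, 246 and 296 against 256, 207 and 250. The ranges overlapped in OPCs and at DIV4, and at DIV2 the null sums were slightly above the control sums. Fitted beside all other genes, the sum had log2 differences of 0.08 (95% interval -0.29 to 0.45), 0.17 (-0.20 to 0.55) and -0.08 (-0.45 to 0.30), and none passed the test (limma adjusted p = 0.81, 0.73 and 0.87). The sum was chosen after the values were seen.

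The share of Rpl3-ps1 in that sum, a ratio within a library that no scaling factor changes, was 0.277% ± 0.125 (SD, n = 3) in control OPCs and 52.1% ± 1.97 in null OPCs. At DIV2 the control clones had 0.166% ± 0.0601 and the null clones 52.0% ± 0.874. The DIV4 shares were 0.265% ± 0.0545 and 52.8% ± 1.17. Over the 9 null libraries the share ran from 49.8% to 54.1%. The shares, like the differences, are given without a test.

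Rpl34-ps1 had the opposite pattern, abundant in every control clone and near 0 in every null clone. In OPCs it was 206, 378 and 154 rescaled TPM in control clones D7, D3 and E8, and 0.617, 0.225 and 1.21 in null clones 3F, D6 and 7F. At DIV2 the control clones had 175, 149 and 150 and the null clones 0.00502, 0.00133 and 0.189. At DIV4 the control clones had 148, 135 and 177 and the null clones 0.00116, 0.00153 and 0.227. The genotypes did not overlap at any stage. The log2 differences of Rpl34-ps1 were -7.13 in OPCs, -7.22 at DIV2 and -7.16 at DIV4, each with a standard error of 0.268, and are again given without a test.

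Rpl34 was higher in the null clones. It was 190, 280 and 127 rescaled TPM in control OPCs (D7, D3, E8) and 419, 551 and 590 in null OPCs (3F, D6, 7F). At DIV2 it was 131, 111 and 112 in control and 328, 300 and 290 in null, and at DIV4 115, 103 and 130 in control and 219, 205 and 234 in null. The genotypes did not overlap at any stage. The log2 differences of Rpl34 were 1.44 in OPCs (SE 0.222, limma adjusted p = 0.0012), 1.37 at DIV2 (adjusted p = 0.0028) and 0.92 at DIV4 (adjusted p = 0.030). The DIV4 call was lost without control D7 (adjusted p = 0.068) and without null 3F, D6 or 7F (adjusted p = 0.14, 0.091 and 0.21), with differences of 0.87 to 0.97. On the deposited TPM the DIV2 and DIV4 differences were 1.19 and 0.76 and did not pass.

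The sum of Rpl34 and Rpl34-ps1 was 395, 658 and 281 rescaled TPM in control OPCs against 420, 551 and 592 in null OPCs. It was 306, 260 and 262 against 328, 299 and 290 at DIV2, and 262, 238 and 307 against 218, 205 and 234 at DIV4. The ranges overlapped in OPCs and at DIV2, whereas at DIV4 the null sums were below the control sums. The log2 differences of the sum were 0.30 (95% interval -0.21 to 0.81), 0.15 (-0.36 to 0.66) and -0.29 (-0.80 to 0.22), and none passed the test (limma adjusted p = 0.43, 0.85 and 0.54). Without control D3 the OPC difference was 0.63 (adjusted p = 0.039). Rpl34-ps1 made up 54.7% ± 2.68 (SD, n = 3) of the sum in control OPCs, 57.2% ± 0.0751 at control DIV2 and 56.9% ± 0.757 at control DIV4. In the null clones it made up 0.131% ± 0.0829, 0.0224% ± 0.0370 and 0.0328% ± 0.0557.

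**Figure D2:**
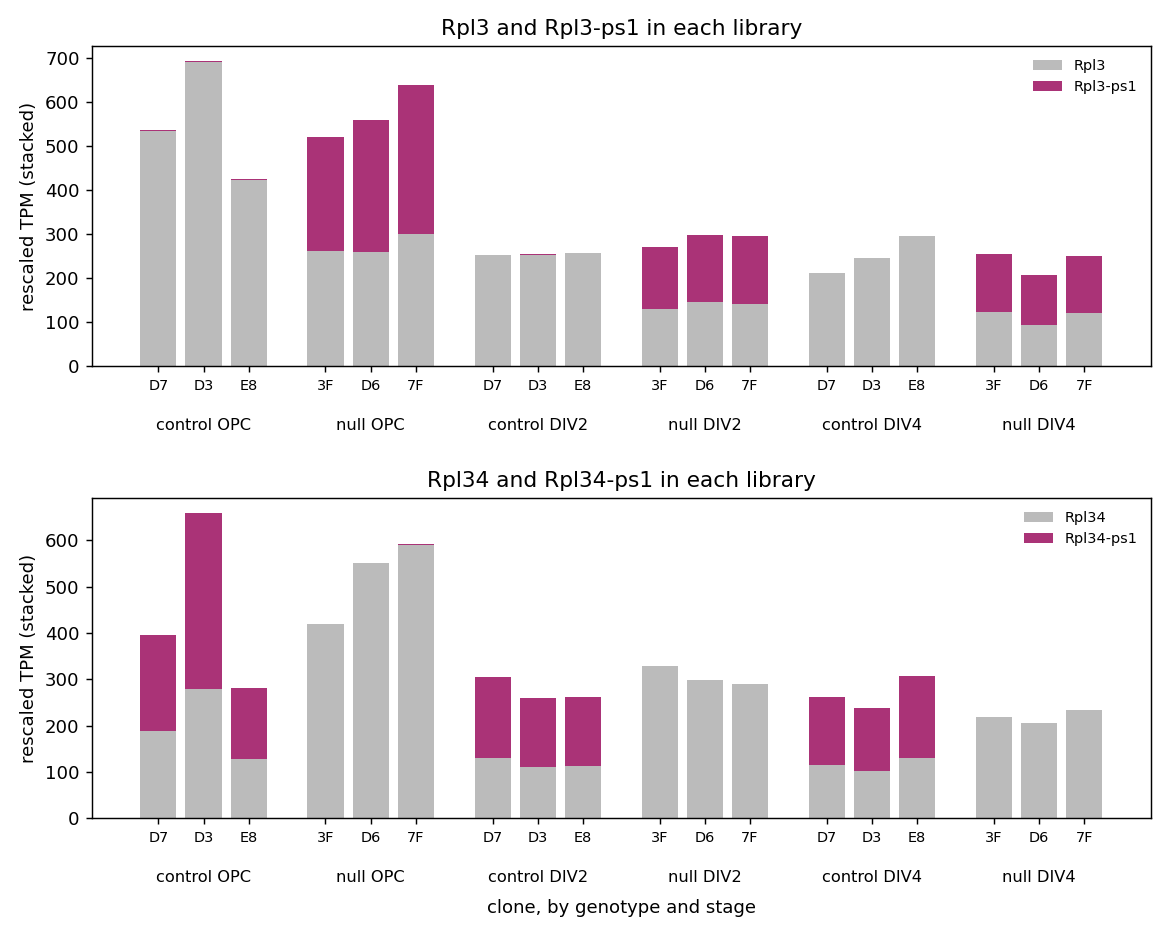
Rescaled TPM of Rpl3 and Rpl3-ps1 (top) and of Rpl34 and Rpl34-ps1 (bottom) in each of the 18 libraries, stacked so that the height of a bar is the sum of parent (grey) and pseudogene (purple). Purple makes up about the same share of every null bar in the top panel (52.0% to 52.8% on average) and of every control bar in the bottom panel (54.7% to 57.2%), and is nearly absent from the other genotype.

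No other pseudogene of the 200 met the switch rule, under which the lowest clone of 1 genotype had to reach 5 rescaled TPM and 10 times the highest clone of the other, at DIV2 and at DIV4. Rpl3-ps1 and Rpl34-ps1 met it at the OPC stage as well. The rule was not applied to all genes, so how common such a split is between these clones is not given. Other copies close to them stayed low. Genes in the table that share at least 50% of the 31-mers of Rpl3-ps1 were, besides Rpl3, Gm5879 (up to 0.615 rescaled TPM in any library), Rpl3-ps2 (up to 1.31) and Gm12816 (up to 0.498). For Rpl34-ps1 they were, besides Rpl34, Gm10154 (up to 0.849), Gm4705 (up to 0.190) and Gm10086 (up to 0.281).

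Among the other 33 tested pseudogenes, 2 were called higher and 1 lower in null OPCs, where 6.03% of all 12462 genes tested were called higher and 5.95% lower. At DIV2 1 was higher and 0 lower, against 1.65% and 1.15% of all genes. At DIV4 0 were higher and 1 lower, against 2.70% and 2.13% of all genes. With Rpl3-ps1 and Rpl34-ps1 counted in, the OPC count was 5, and it was 3 without null D6 or 7F and 2 in a fit of only the 6 OPC libraries. The median log2 difference over the 35 was 0.19 in OPCs, 0.36 at DIV2 and -0.02 at DIV4, where that of all genes tested was 0.04, 0.00 and -0.01. The 77 tested cytosolic ribosomal protein genes had medians of 0.13, 0.36 and -0.04. On the deposited TPM 33 pseudogenes were called higher and 1 lower in null OPCs, with a median over all genes of 1.5. At DIV2 and DIV4 none of the 33 tested pseudogenes other than Rpl3-ps1 and Rpl34-ps1 was called on that scale. Averaged over the stages so that each clone counted once, 2 of the 33 were higher and 1 lower in null, against 2.02% and 1.40% of all genes. With Rpl3-ps1 and Rpl34-ps1 that count was 5, and it was 3 without control E8 and 2 without null 3F or 7F.

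Rpl15 has 2 tested copies with a -ps name, and they moved in opposite directions. Rpl15, a large-subunit gene, was 56.7 to 70.9 rescaled TPM in control OPCs and 78.8 to 98.2 in null OPCs, and its difference did not pass the test at any stage (limma adjusted p = 0.095, 0.57 and 0.63). Rpl15-ps3, on the minus strand of chromosome 9 from 22185607 to 22186221 and identical to the parent over its 615 annotated bases, was 405, 585 and 318 in control OPCs (D7, D3, E8) and 229, 270 and 272 in null OPCs (3F, D6, 7F). It was 198, 176 and 191 against 139, 130 and 140 at DIV2, and 169, 143 and 201 against 73.1, 56.9 and 78.7 at DIV4. Every null clone was below every control clone at each stage. The log2 differences were -0.72 in OPCs (SE 0.197, limma adjusted p = 0.030), -0.46 at DIV2 (adjusted p = 0.28) and -1.29 at DIV4 (adjusted p = 0.0019). The OPC call was lost without control D7 or D3 and without null 3F, D6 or 7F (adjusted p from 0.051 to 0.15). On the deposited TPM Rpl15-ps3 was higher in null OPCs, by 1.41 (limma adjusted p = 0.0089), which was less than the median over all genes on that scale.

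Rpl15-ps2 lies on the plus strand of the same chromosome from 72060937 to 72061549, in an intron of Tcf12 on the opposite strand, and its 613 bases were 98.7% identical to Rpl15. It was 41.7, 34.2 and 24.3 rescaled TPM in control OPCs and 59.4, 69.8 and 69.9 in null OPCs. It was 17.5, 15.8 and 16.5 against 38.2, 33.3 and 38.9 at DIV2, and 18.3, 13.7 and 18.9 against 24.7, 23.3 and 25.8 at DIV4. Every null clone was above every control clone at each stage. The log2 differences were 0.998 in OPCs (SE 0.168, limma adjusted p = 0.0020), 1.10 at DIV2 (adjusted p = 0.0015) and 0.52 at DIV4 (adjusted p = 0.087). Its share of Rpl15-ps2 and Rpl15 together was 33.5% ± 3.52 (SD, n = 3) in control OPCs and 43.5% ± 3.02 in null OPCs, whereas the share of Rpl15-ps3 with Rpl15 went from 86.6% ± 2.69 to 74.8% ± 2.25. Rpl15 and all pseudogenes named after it, added together, were lower in null at DIV4 by 0.79 on the log2 scale (limma adjusted p = 0.020), so that this sum was not level between the genotypes. It leaves out copies without a -ps name, among them Gm4294, Gm10020 and Gm10224. At DIV4 Gm10020 was 14.6, 11.4 and 18.2 rescaled TPM in control clones (D7, D3, E8) and 17.5, 19.2 and 18.5 in null clones (3F, D6, 7F). A sum that includes these copies was not made.

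Between the genotypes, a pair of less abundant pseudogenes were each called once. Rpl18-ps2 was 3.58, 2.47 and 0.00114 rescaled TPM in control OPCs (D7, D3, E8) and 7.10, 7.83 and 9.04 in null OPCs (3F, D6, 7F), a log2 difference of 1.83 (SE 0.427, limma adjusted p = 0.014). Without control E8 the difference was 1.17, and the call was lost without null D6 or 7F (adjusted p = 0.060 and 0.094) and with a pseudocount of 0.1 (adjusted p = 0.054). Its parent Rpl18 was 325 to 560 in control and 475 to 539 in null OPCs (adjusted p = 0.56). Rpl21-ps15 was 2.81, 18.1 and 0.963 in control OPCs and 21.8, 33.9 and 22.3 in null OPCs. Its OPC difference did not pass (2.34, adjusted p = 0.070), and neither did those at DIV2 and DIV4, while the difference over the stage means passed (1.20, adjusted p = 0.030). Between OPC and DIV4 it fell by 2.73 on the log2 scale in null clones (adjusted p = 0.017). Rpl21 was 201 to 223 in control and 177 to 263 in null OPCs (adjusted p = 0.84). Both pseudogenes were scattered among the control clones, with E8 lowest.

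**Figure D3:**
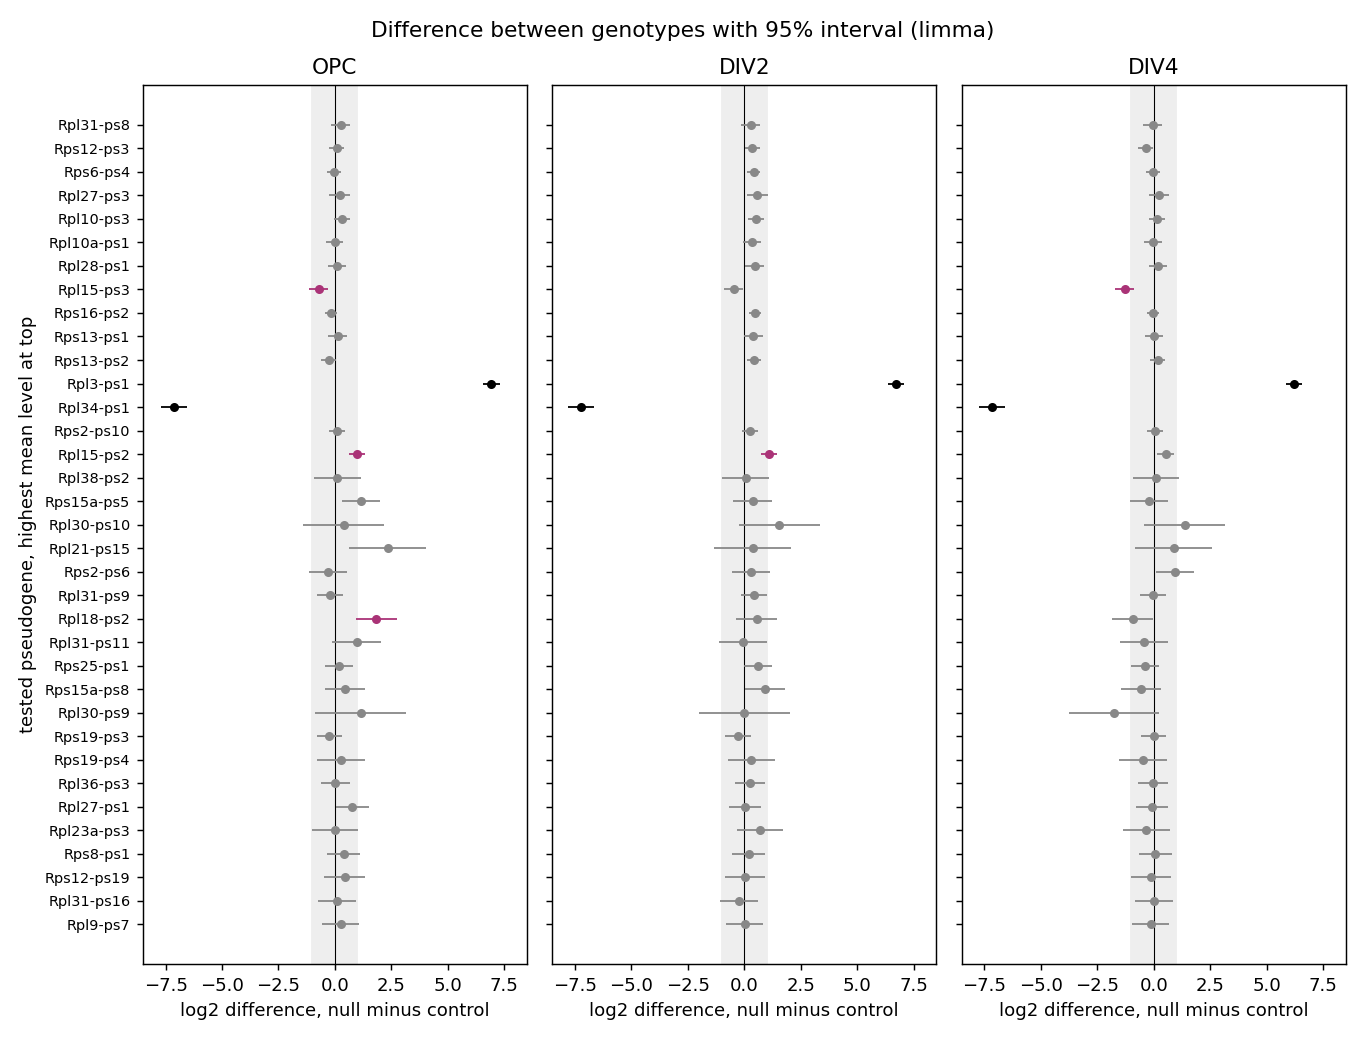
Log2 difference, null minus control, of each of the 35 tested pseudogenes at OPC, DIV2 and DIV4, with its 95% interval from limma and ordered by mean level. Purple points passed an adjusted p of 0.05, black points are the 2 switched pseudogenes, shown without a test, and the grey band spans -1 to 1. Rpl3-ps1 (6.24 to 6.94) and Rpl34-ps1 (-7.22 to -7.13) stand far outside the band at every stage.

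Constant pseudogenes were defined as tested ones whose 95% interval for null minus control lay between -1 and 1 on the log2 scale at all 3 stages. There were 12, namely Rpl31-ps8, Rps12-ps3, Rps6-ps4, Rpl10-ps3, Rpl10a-ps1, Rpl28-ps1, Rps16-ps2, Rps13-ps1, Rps13-ps2, Rps2-ps10, Rps19-ps3 and Rpl36-ps3. Their differences ran from -0.36 to 0.53 and their intervals from -0.83 to 0.91, so a change of less than 2-fold remains possible for each. The rule bounds the difference and does not make the groups overlap. At DIV2 every null clone was above every control clone for 9 of the 12, a pattern that 15.1% of all genes tested had, and the median over the 77 ribosomal protein genes was 0.36 there. In OPCs this held for 1 of the 12 (Rpl10-ps3), and at DIV4 every null clone was below every control clone for 1 (Rps12-ps3). The shares of all genes with these patterns in OPCs and at DIV4 were not counted, so the stages are not compared. None of the 12 passed the test at any stage, though Rps16-ps2 was close to it at DIV2 (limma adjusted p = 0.051). Of the 14 abundant pseudogenes 10 were constant, and of the 12 constant ones 8 were identical to the parent over the aligned stretch of the M21 model. No pseudogene was constant on the deposited TPM or with a bound of 0.5. Another 18 of the 35 were neither called at a stage nor constant, because their intervals reached past -1 or 1, and 17 of those had a mean under 50.

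The 5 most abundant constant copies are described with their parents. Rpl31-ps8 was 870, 1155 and 664 rescaled TPM in control OPCs (D7, D3, E8) and 846, 1126 and 1229 in null OPCs (3F, D6, 7F), and the ranges overlapped. Its share with Rpl31 was 97.6% ± 0.161 (SD, n = 3) in control and 97.5% ± 0.230 in null OPCs. Its DIV2 values were 526, 442 and 458 in control and 564, 564 and 596 in null, without overlap (log2 difference 0.28, limma adjusted p = 0.57). At DIV4 it was 403, 370 and 462 in control and 408, 351 and 441 in null, and its log2 difference there was -0.04 (95% interval -0.47 to 0.38).

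Rps12-ps3 was 1023, 1052 and 839 rescaled TPM in control OPCs and 850, 1160 and 1082 in null OPCs. At DIV2 it was 407, 403 and 371 against 497, 521 and 499, and at DIV4 404, 406 and 535 against 349, 320 and 375. The ranges overlapped in OPCs and not at DIV2 or DIV4, where the differences had opposite signs (0.36 and -0.36, limma adjusted p = 0.30 and 0.22). Rps6-ps4, the copy of the small-subunit gene whose protein is phosphorylated downstream of mTOR, was 692, 740 and 554 in control OPCs and 573, 663 and 677 in null OPCs. At DIV2 it was 273, 240 and 244 against 328, 329 and 351, without overlap (0.41, adjusted p = 0.16), and at DIV4 262, 219 and 288 against 261, 238 and 257. Rps6 was 17.2 to 96.3 in control and 18.2 to 62.1 in null libraries over all stages.

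Rpl10-ps3 was 415, 404 and 310 rescaled TPM in control OPCs and 423, 490 and 493 in null OPCs, and the null clones were all higher. It was 218, 173 and 192 against 261, 286 and 293 at DIV2, again without overlap (log2 difference 0.53, limma adjusted p = 0.12), and 149, 174 and 213 against 228, 169 and 200 at DIV4. Its parent Rpl10, a large-subunit gene that lies on the X chromosome, was 71.0, 186 and 44.0 in control and 179, 168 and 218 in null OPCs, a log2 difference of 1.15 (SE 0.345, limma adjusted p = 0.044) that was lost without any 1 clone except control D3 (adjusted p from 0.11 to 0.23). Rpl10a-ps1 was 436, 580 and 333 in control OPCs and 371, 448 and 496 in null OPCs, and 159, 163 and 200 against 178, 153 and 183 at DIV4. Its DIV2 values were 178, 157 and 182 against 212, 223 and 219, without overlap (0.34, limma adjusted p = 0.42). Rpl10a was 58.5 to 93.0 in control and 65.1 to 82.5 in null OPCs. The DIV4 ranges of both copies overlapped.

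Pseudogenes and ribosomal protein genes were lower at DIV4 than at OPC on the rescaled scale. Between OPC and DIV4, 17 of the 35 were lower and 0 higher in control clones, where 16.2% of all genes were called lower and 16.1% higher. In null clones 22 were lower and 0 higher, where 16.8% of all genes were called lower and 16.5% higher. Of these, 16 were called lower in both genotypes. The median log2 change of the 35 was -0.89 in control and -1.21 in null. The 77 tested ribosomal protein genes had 66 called lower and 0 higher in control (median -1.10) and 68 lower and 0 higher in null (median -1.25). Summed over all 200, the pseudogenes fell from 6028 ± 1237 (SD, n = 3) rescaled TPM in control OPCs to 2656 ± 264 at control DIV4, and from 6280 ± 810.2 to 2488 ± 180 in null. The control comparison rests on the rescaling, because on the deposited TPM 24 pseudogenes were called higher and 0 lower at control DIV4, with a median over all genes of 2.01. On that scale 37 pseudogenes were tested, and 11364 of all 12894 genes tested were called in either direction. In null clones the deposited TPM gave 6 lower and 0 higher. A fit of only the 6 control libraries gave 4 lower and 0 higher. In bulk RNA, fewer cells of a type and less RNA per cell cannot be told apart. Markers moved with the stage as well, since the oligodendrocyte markers summed to 43.5 to 438 in control OPCs and 1146 to 7256 at control DIV4, and the astrocyte markers went from at most 8.04 in OPCs to the DIV4 sums given above. The part of cell type and of division in the fall was not tested.

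Of the 16 called lower in both genotypes, Rps2-ps6, Rpl15-ps3 and Rps2-ps10 had the largest falls by the mean of the control and null changes; the order within 1 genotype differs. Rps2 encodes a small-subunit protein. Rps2-ps6 went from 19.8, 13.1 and 16.6 rescaled TPM in control OPCs (D7, D3, E8) to 0.0453, 2.35 and 3.54 at DIV4, a log2 change of -2.78 (SE 0.394, limma adjusted p = 2.2e-04). In null clones (3F, D6, 7F) it went from 12.9, 11.1 and 15.3 to 4.53, 2.95 and 4.17, a change of -1.53 (adjusted p = 0.0079) that did not pass without D6 or 7F (adjusted p = 0.065 and 0.082) or with a pseudocount of 0.1 (adjusted p = 0.11). Rps2-ps10 went from 140, 137 and 97.4 to 40.8, 51.7 and 51.7 in control and from 115, 141 and 138 to 48.2, 56.5 and 45.4 in null. Its changes, -1.35 and -1.37 (SE 0.167), were close to those of Rps2 (-1.21 and -1.18), and it stayed at 14.8% to 20.7% of the pair in every library. Rpl15-ps3 fell by 1.31 on the log2 scale in control and by 1.88 in null. On the deposited TPM the control changes of Rpl15-ps3 and Rps2-ps10 were rises, of 1.46 and 1.38, both less than the median over all genes of 2.01. On the rescaled values, OPC and DIV4 libraries did not overlap within a genotype for any of the 3, which were picked for large called falls.

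**Figure D4:**
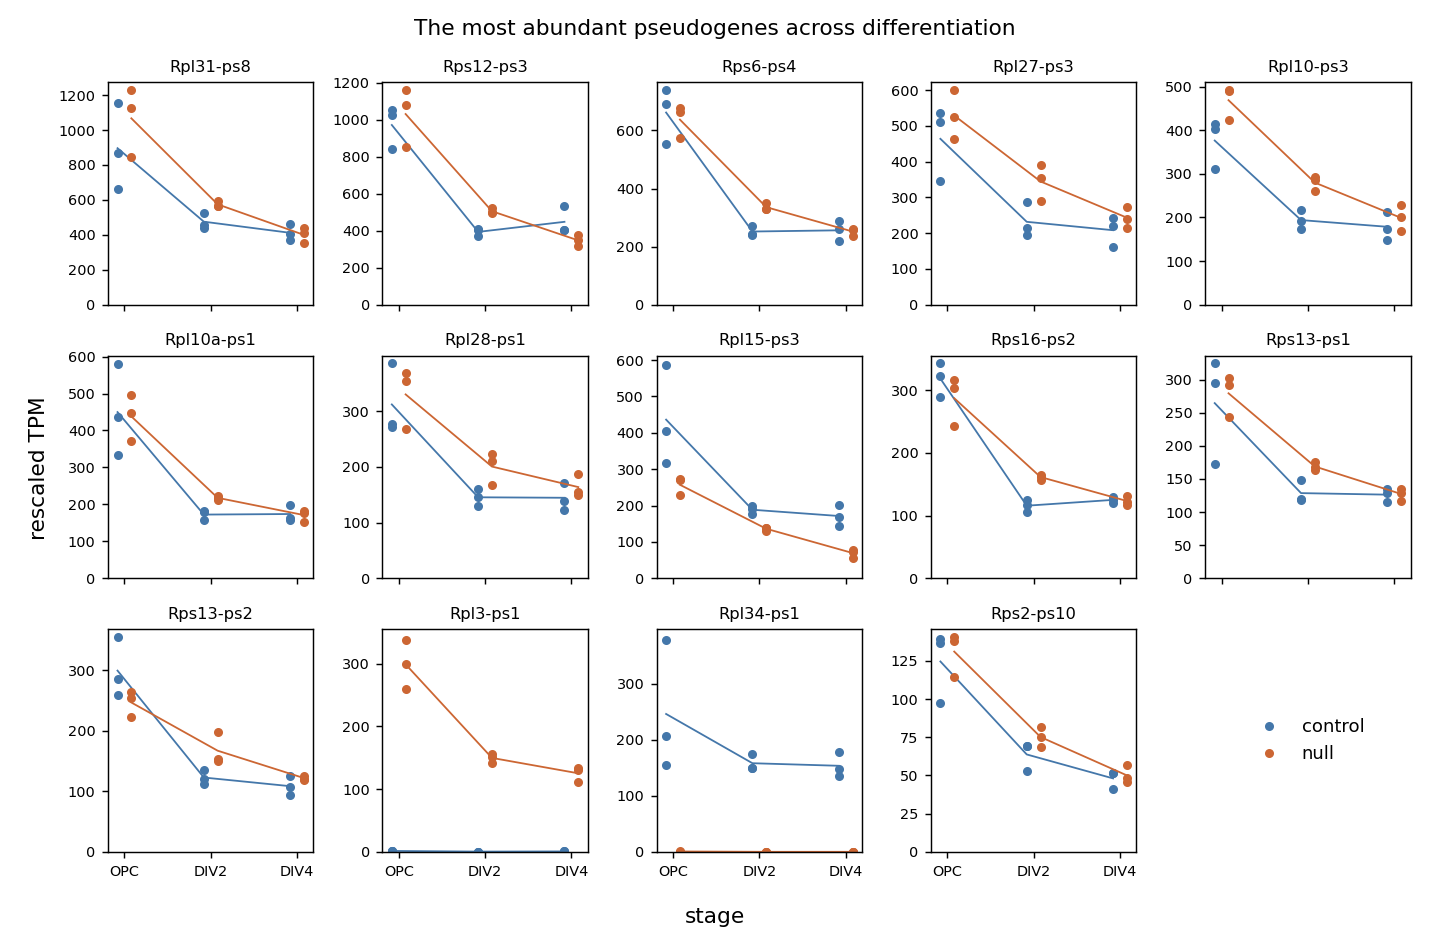
Rescaled TPM of the 14 pseudogenes with a mean of 50 or more at OPC, DIV2 and DIV4, 1 point per clone and a line through the group means, control in blue and null in orange. In 11 of the panels both colours fall from OPC to DIV2, most with null above control at DIV2, Rpl15-ps3 runs lower in null, and Rpl3-ps1 and Rpl34-ps1 lie on the axis in 1 genotype.

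The change from OPC to DIV4 differed between the genotypes for 1 pseudogene of 35, Rpl18-ps2, which was lower, where 1.33% of all genes were called lower and 1.45% higher. Its change was 0.72 (limma adjusted p = 0.21) in control, and it fell by 2.04 in null (adjusted p = 0.0021), an interaction of -2.76 (SE 0.604, adjusted p = 0.030). At DIV4 it was 3.50, 2.97 and 2.97 rescaled TPM in control and 0.337, 1.49 and 2.12 in null. The call was lost with a pseudocount of 0.1 (adjusted p = 0.090) and without control E8 or any null clone (adjusted p from 0.052 to 0.18).

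Among the 49 parent genes tested, 7 were higher and 2 lower in null OPCs, 2 and 2 at DIV2, and 2 and 2 at DIV4, where the shares of all genes called higher and lower were 6.03% and 5.95%, 1.65% and 1.15%, and 2.70% and 2.13%. The 4 called at every stage were Rpl3 and Rpl34, described above, and Rpl29 and Rplp0. Rpl3 and Rpl34 are thus in all of these counts, and their copies were singled out with the pattern known. Rpl29, a large-subunit gene, was 236 to 298 rescaled TPM in control and 1.22 to 1.86 in null OPCs, with log2 differences of -6.68, -5.96 and -5.79 at OPC, DIV2 and DIV4 (SE 0.139, limma adjusted p = 3.1e-13, 1.6e-12 and 2.4e-12). Rplp0, the gene of the ribosomal stalk base protein, was 175 to 193 in control and 435 to 466 in null at DIV2, with differences of 0.61, 1.29 and 0.94 (SE 0.178, adjusted p = 0.039, 7.5e-04 and 0.0081). No pseudogene named after either was tested, since all were under a mean of 1.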

How the data were processed

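The data are RNA sequencing libraries of 3 control and 3 Thap1 null clones at 3 stages. Per the labels, total RNA was taken through a stranded kit with ribosomal RNA removal. The deposited file gives TPM per transcript, computed by the authors. The submitters' processing notes name STAR, Picard and mm10, with neither versions nor roles, and the quantifier and annotation are not given in the sources used here. The deposited table also holds a transcript length, used only to compare models. TPM keeps no depth, so counting errors and detection floors could not be given, and precision rests on 3 clones per group.

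TPM was summed by gene symbol (25 names turned into dates were restored through transcript identifiers) and rescaled with median-of-ratios factors from 11432 genes. Genes with a mean of at least 1 rescaled TPM (12462) entered limma 3.58.1 (R 4.3.3) as log2(rescaled TPM + 1), which understates changes of weakly expressed genes. The model had 1 mean for each of the 6 groups and used all 18 libraries (eBayes, trend on). Benjamini-Hochberg adjustment ran over every gene tested in a comparison, with calls made under 0.05. For the comparison over all stages each clone's 3 libraries were averaged. Shares of a pseudogene in the sum with its parent are given without the exact permutation test first planned, which 3 against 3 clones cannot take below p = 0.1. In simulated data for null against control at DIV4, on 12462 genes, 53% of changes of 1 and 86% of changes of 2 on the log2 scale were recovered, and 6.1% of the calls were false.

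A member's parent is the gene whose symbol is the member's without the suffix. Positions and bases were read from GENCODE M21 (build GRCm38), which held 96.5% of the transcript identifiers. Identity comes from a local alignment to the best-scoring coding transcript of the parent (Biopython 1.88), and 31-mers were compared with all M21 transcripts.

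Values per library are given for pseudogenes that met the switch rule, those called in 1 direction at all stages, the 5 most abundant constant ones, up to 3 with the largest change between OPC and DIV4 (mean of both genotypes) among those called in both, the largest called interaction, and their parents. Rpl15-ps2, Rpl21-ps15, Rpl29 and Rplp0 were named after their values were seen, as were the other genes of the last section. One gene of the oligodendrocyte marker list is not reported here and was left out of its sum. The members, lists and rules were chosen with earlier results of these data known. Clones pair the stages because each is 1 cell line. Deviations from the group means correlated at 0.12 on average within a clone (18 pairs, -0.0087 to 0.42) and at -0.060 between clones. Such deviations cancel within each group, so the value between clones is largely set by the value within a clone. Alternatives were the deposited TPM, quantile normalization, no filter, a filter at a mean of 5, a pseudocount of 0.1, eBayes without the trend, only the libraries compared, the clone as a replicate block, and leaving out each clone.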

Additional observations from a re-analysis of the deposited data

Results flagged for a closer look

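The DIV4 change of Rpl18-ps2 differed between the genotypes by a test of the difference itself. Its change from OPC to DIV4 was lower in null than in control by an interaction of -2.76 on the log2 scale (SE 0.604, limma adjusted p = 0.030), with 3 of 3 null clones lower at DIV4 than at OPC. It was the 1 call among 35 tested pseudogenes, where 1.33% of all genes tested were called lower and 1.45% higher. The call was lost with a pseudocount of 0.1 and without control E8 or any null clone. Its level was at most 9.04 rescaled TPM in any library, and the control OPC library of clone E8 was listed at 0.00114. Of its TPM, 92.6% lay in a model of 278 bases, the shortest of its 3 models, which was not found in M21.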

How the results depend on the processing

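Rpl3-ps1 and Rpl34-ps1, and no other pseudogene, met the switch rule on the deposited TPM, at 5 or 20 times in place of 10, and without any 1 clone. For these 2 that adds no support, since their pattern was known beforehand. The counts of called pseudogenes depended most on scaling. Those for null against control include Rpl3-ps1 and Rpl34-ps1, which were singled out with their pattern known. Without these 2 the main fit called 2 higher and 1 lower in OPCs, and 1 higher and 0 lower at DIV2. It called 0 higher and 1 lower at DIV4, and 2 higher and 1 lower over all stages. On the deposited TPM they were 34 in OPCs (main 5), 24 for control DIV4 against OPC, all higher (main 17, all lower), 6 for null DIV4 against OPC (main 22), 29 for the interaction (main 1) and 16 over all stages (main 5), and 0 pseudogenes were constant (main 12). The median over all genes was then 1.5, 2.01, 0.37, -1.68 and 0.40. For control DIV4 against OPC, 11364 of the 12894 genes tested on that scale were called in either direction. Quantile normalization gave 13 for null DIV4 against OPC. A fit of only the libraries compared gave 2 in OPCs, 4 for control DIV4 against OPC and 0 for the interaction, which was also 0 with a pseudocount of 0.1, no filter or a mean of at least 5. With a bound of 0.5, 0 were constant. Leaving out each clone gave 3 to 7 calls in OPCs, 3 to 4 at DIV2 and at DIV4, 15 to 22 and 16 to 27 between stages in control and null, 0 to 4 for the interaction (4 without control D3, 0 without control E8 or any null clone), 2 to 5 over all stages, and 8 to 16 constant. With the clone as a replicate block the counts were 5 in OPCs, 4 at DIV2, 3 at DIV4, 17, 23 and 1, and the block changed no call of a named gene. On the deposited TPM these named differences changed sign in OPCs: Rpl3 (1.16), Rpl15-ps3 (1.41), Rps2-ps6 (1.56), Rps2 (2.13), Rps6-ps4 (2.09), Rps6 (1.82) and Rpl10a-ps1 (2.12). Of these, Rps2-ps6 (-0.30), Rps6-ps4 (-0.05) and Rpl10a-ps1 (-0.01) were not called in the main fit. The sign also changed for the control stage changes of Rpl15-ps3 (1.46) and Rps2-ps10 (1.38) and the interactions of Rpl21 (-2.15), Rps2 (-2.27), Rps6-ps4 (-2.26), Rps6 (-2.01) and Rpl10a (-1.94). TPM keeps no depth, so values near 0 have no stated limit, and 3 clones a genotype limit the precision. The sums of a pseudogene and its parent and the genes of the next section were chosen after seeing the data.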

Other observations

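The 2 other parents that differed at every stage, Rpl29 and Rplp0, each had a copy without a -ps name that met the same switch rule. Genes that are neither ribosomal protein genes nor named -ps, but share at least 50% of a transcript's 31-mers with a parent, numbered 130 in the table, and 2 of them met the rule. The share of all genes that meet the rule was not counted. Gm13841, which shares 79.5% of its 31-mers with Rpl29, was 0.491, 2.17 and 1.15 rescaled TPM in control OPCs (D7, D3, E8) and 291, 364 and 342 in null OPCs (3F, D6, 7F). At DIV4 it was 0.353, 1.18 and 0.495 against 146, 126 and 149. Rpl29 was 298, 272 and 236 in control and 1.86, 1.22 and 1.84 in null OPCs. The sum of Rpl29 and Gm13841 was 237 to 299 in control and 293 to 365 in null OPCs, 124 to 159 and 200 to 209 at DIV2, and 111 to 130 and 128 to 151 at DIV4. The sums overlapped in OPCs and at DIV4, while at DIV2 the null sums were higher.

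Gm8730, which shares 62.8% of its 31-mers with Rplp0, was 68.9, 91.3 and 53.4 rescaled TPM in control OPCs and 0.171, 0.0538 and 0.0439 in null OPCs. At DIV4 it was 28.4, 22.2 and 25.2 against 0.0437, 0.0905 and 0.0491. The sum of Rplp0 and Gm8730 was not level: it was 198 to 222 in control and 435 to 466 in null at DIV2. An on and off split also occurred inside the control genotype. Gm12191, which shares 90.2% of its 31-mers with Rpl30, was 152.9 rescaled TPM in control OPC clone D3 but 0.00726 and 0.0123 in D7 and E8, and 113, 178 and 178 in null OPCs. At DIV4 it was 57.5 in D3 against 0.00140 and 0.00107 in D7 and E8, and 62.0 to 77.4 in null.

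These genes were found after the values were seen, and what sets the copies apart between clones was not tested. As for Rpl3-ps1 and Rpl34-ps1, transcription of a copy, assignment of shared reads and allele differences between clones cannot be told apart here.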
